A study of Mus musculus with 3 samples.

Results

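Mef2c, Mef2d and Hdac7 were examined through 3 fixed windows on the mouse build mm9: chromosome 13 from 83600000 to 83850000 (Mef2c, 250 kb), chromosome 3 from 87920000 to 88000000 (Mef2d, 80 kb) and chromosome 15 from 97600000 to 97700000 (Hdac7, 100 kb). Every peak overlapping a window was a member. This gave 19 of the 29468 peaks of histone H3 acetylated at lysine 27 (H3K27ac) and 14 of the 18142 peaks of histone H3 trimethylated at lysine 4 (H3K4me3). The genes were selected on the peak lists themselves, with earlier results in view, so the counts, widths and scores below are descriptions and not tests. Chromatin immunoprecipitation with sequencing had been done in a culture of mouse acute lymphoblastic leukaemia cells of the precursor B-cell stage, driven by the Bcr-Abl fusion kinase, with neither stimulation nor treatment. There were 3 samples from these cells: 1 library for H3K27ac, 1 for H3K4me3 and 1 from an immunoglobulin (IgG) control. The labels give no strain, age or further allele. The IgG library was not analysed here.

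Mef2c and Mef2d encode closely related MADS-box transcription factors, which bind the same AT-rich site and act together in the development of B-cell precursors. Hdac7 encodes a class IIa histone deacetylase, a protein that binds MEF2 factors and brings corepressors to their target genes, and in B-cell progenitors it holds genes of other blood lineages silent with Mef2c. H3K4me3 marks promoters. H3K27ac marks active promoters and active enhancers, and unusually long stretches of either mark are known from genes that matter to the identity of a cell.

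Sequences before RefSeq transcription starts are shown to give the base composition of the promoters at these genes. They come from RefSeq on GRCm38.p6, a later build than that of the peaks, and they were not placed on the peaks. Of the 8 starts listed, 3 belong to Mef2c, 1 to Mef2d and 4 to Hdac7. Capitals mark CpG dinucleotides, the bases where promoter methylation occurs and which are dense in CpG islands. For each gene the 250 bases before the start with the most CpG are printed, apart from a start of Hdac7 that closely follows another, and the first start of Mef2c is printed as the poorest in CpG. Mef2c lies on the plus strand of chromosome 13, Mef2d on the plus strand of chromosome 3 and Hdac7 on the minus strand of chromosome 15.
Mef2c start 1: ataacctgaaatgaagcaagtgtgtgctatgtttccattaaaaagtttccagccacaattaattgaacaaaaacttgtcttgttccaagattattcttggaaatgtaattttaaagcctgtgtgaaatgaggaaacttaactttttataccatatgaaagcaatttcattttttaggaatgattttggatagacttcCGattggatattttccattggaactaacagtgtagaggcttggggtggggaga
Mef2c start 2: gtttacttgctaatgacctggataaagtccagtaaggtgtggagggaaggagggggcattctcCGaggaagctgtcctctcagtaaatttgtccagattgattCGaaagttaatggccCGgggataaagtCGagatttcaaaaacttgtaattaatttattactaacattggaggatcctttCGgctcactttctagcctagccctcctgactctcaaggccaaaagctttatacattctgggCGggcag
Mef2d start 1: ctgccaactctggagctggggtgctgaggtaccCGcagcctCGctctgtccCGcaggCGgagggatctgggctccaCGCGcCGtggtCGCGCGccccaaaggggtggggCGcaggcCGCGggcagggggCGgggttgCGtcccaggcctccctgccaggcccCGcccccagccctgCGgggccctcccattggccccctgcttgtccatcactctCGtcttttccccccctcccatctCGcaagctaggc
Hdac7 start 2: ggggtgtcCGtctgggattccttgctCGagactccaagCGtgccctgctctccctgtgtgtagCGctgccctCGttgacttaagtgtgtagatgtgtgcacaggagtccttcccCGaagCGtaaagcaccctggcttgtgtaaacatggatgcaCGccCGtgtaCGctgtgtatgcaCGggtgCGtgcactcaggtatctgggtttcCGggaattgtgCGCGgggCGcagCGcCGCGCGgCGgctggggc

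The Mef2d promoter held 19 CpG in these 250 bases and was 73.2% G or C. Start 2 of Hdac7 held 21 CpG at 62.0% G or C. At Mef2c the count was 1 CpG at 33.6% G or C for start 1 and 6 CpG at 44.8% for start 2. The median over 32851 starts in the RefSeq table was 6 CpG and 52.4% G or C. Fewer CpG were found in 80.3% of all starts than at Mef2d, in 83.7% than at start 2 of Hdac7, in 49.6% than at start 2 of Mef2c and in 7.87% than at its start 1. The sequences not printed held 4 CpG (start 3 of Mef2c), 6 (start 1 of Hdac7), 25 (start 3 of Hdac7) and 5 (start 4 of Hdac7). On both strands, the GC box GGGCGG occurred 2 times at Mef2d and 1 time at start 2 of Mef2c. It occurred 0 times at the other 2 printed starts and, among those not printed, 1 time at start 3 of Hdac7. Of all starts, 32.7% held it. TTCNNNGAA, the form of site bound by STAT5, occurred 2 times at start 2 of Hdac7, 1 time at its start 4 and 1 time at start 1 of Mef2c, against 7.02% of all starts with at least 1 match. The E-box CANNTG occurred 2 times at start 1 of Mef2c and 0 times at the other 3 printed starts (66.2% of all starts held it). Among the starts not printed, it occurred 1 time at start 3 of Mef2c and 1 time at start 1 of Hdac7. GGAA, the core of ETS sites, occurred among the printed starts 9 times at start 1 of Mef2c, 4 times at start 2 of Hdac7, 2 times at start 2 of Mef2c and 1 time at Mef2d (93.4% of all starts). CCCNNGGG, part of the site of EBF factors, was in none of the 8 sequences and in 11.8% of all starts. The MEF2 site was in none of the 8 sequences and in 2.92% of all starts. These matches describe letters only.

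The peak lists carry few measures beside position. Each was called by the authors from 1 library, so no value below has a replicate error, no test between samples was possible and read depth is unknown. Each peak has a score that no header or label defines. Both lists start at a score of 50.01, and the value 3100, called the ceiling here, was shared by 6863 H3K27ac and 9042 H3K4me3 peaks, with 243 and 75 peaks above it. Scores rank peaks within a list and are not compared between marks. No mm9 annotation was used, so peaks were not assigned to start sites, exons or introns, a peak in a window is tied to its gene by the window alone, and the cell type was not checked against marker genes. In the GRCm38.p6 gene order, the neighbouring protein-coding genes are Cetn3 and Tmem161b for Mef2c and Iqgap3 and Rhbg for Mef2d. For Hdac7 they are Rapgef3 and Vdr, and Slc48a1 overlaps it.

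All 14 H3K4me3 peaks of the windows met H3K27ac (100%, exact 95% binomial interval 76.8 to 100%), where meeting means sharing at least 1 bp. In the whole H3K4me3 list 86.1% did. Of the 19 H3K27ac peaks, 9 met H3K4me3 (47.4%, interval 24.4 to 71.1%), against 52.3% of the whole list. Both background values lie inside the intervals of the windows, which cover counting error alone and take each peak as independent of the others. Scores at the ceiling or above, in the windows always exactly 3100, were held by 8 of the 19 H3K27ac peaks (42.1%, whole list 24.1%) and 6 of the 14 H3K4me3 peaks (42.9%, whole list 50.3%). Of the 10 H3K27ac peaks without H3K4me3, 5 were weak and narrow, scoring 52.10 to 63.89 at 562 to 618 bp, 4 scored 192.34 to 736.07, and 1, at Mef2c, was at the ceiling. In each window 1 H3K27ac peak, 3 of the 19 in all, met 2 or more H3K4me3 peaks, as did 2.0% of all H3K27ac peaks. The 3 are wide, and wide peaks often do so: 45.9% of the 405 H3K27ac peaks of 9 kb or more and 70.1% of the 77 of 15 kb or more met 2 or more.

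**Figure D1:**
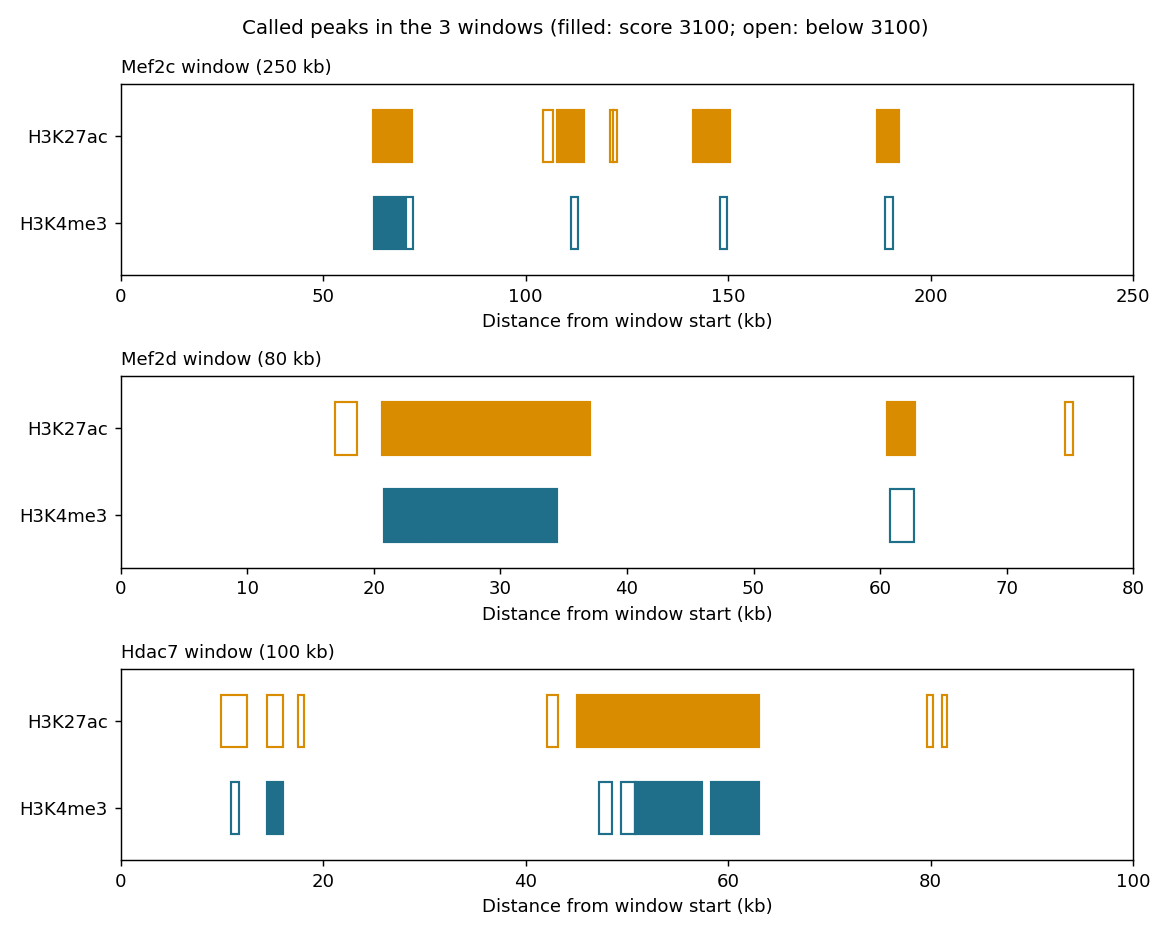
Called peaks in the 3 windows, plotted as boxes by distance from the window start in kb, with H3K27ac above H3K4me3, filled where the score is 3100 and open where it is lower. Mef2d and Hdac7 each show 1 long block of both marks (16457 and 17968 bp of H3K27ac), and Mef2c shows 4 separate sites with both marks. The filled H3K4me3 block at Mef2d is 2 peaks with 113 bp between them.

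Mef2d, a MEF2 factor expressed in many tissues, had its chromatin marks concentrated in a single block. An H3K27ac peak of 16457 bp (chromosome 3, 87940663 to 87957119) scored 3100 and was the 52nd widest of the 29468 H3K27ac peaks. It enclosed 2 H3K4me3 peaks, both at the ceiling: 3276 bp (87940803 to 87944078) and 10313 bp (87944192 to 87954504). The second was the 6th widest single peak of the H3K4me3 list. With H3K4me3 peaks joined across gaps of up to 1000 bp, both formed a domain of 13702 bp, rank 3 of 17471 domains. The domains next to it in rank measured 15269 bp on chromosome 4 and 13642 bp on chromosome 16. Joining within 2 kb left its width at 13702 bp and put it at rank 9. At its left edge the H3K27ac peak began 140 bp before H3K4me3, and at its right edge it ran 2615 bp past it. On the plus strand given by RefSeq, that overhang points in the direction of transcription.

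The rest of the Mef2d window held little. An H3K27ac peak of 1764 bp (87936921 to 87938684, score 281.28) lay 1978 bp before the block and had no H3K4me3. A second site with both marks lay 23.4 kb after the block: H3K27ac of 2208 bp (87980522 to 87982729) at the ceiling and H3K4me3 of 1839 bp (87980807 to 87982645) scoring 1407.34. The H3K4me3 width at this site was 0.833 times that of H3K27ac. Pairs with H3K27ac at or above the ceiling, each peak meeting only the other, had quartiles of 0.673 and 1.08 for this ratio. H3K4me3 was below its ceiling in 20.8% of such pairs, as it was here. The last peak, H3K27ac of 600 bp (87994630 to 87995229), scored 60.08. The block thus made up 78.3% of the H3K27ac length in the window.

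Mef2c, a MEF2 factor prominent in lymphoid and muscle cells, differed in form: both marks met at 4 sites spread along the window, and only the first was broad for H3K4me3. The first site carried an H3K27ac peak of 9679 bp (chromosome 13, 83662184 to 83671862) at the ceiling. Under it lay an H3K4me3 peak of 7534 bp (83662453 to 83669986) at the ceiling and one of 1651 bp (83670401 to 83672051) scoring 384.98, with a gap of 414 bp. Joined, the H3K4me3 domain was 9599 bp and ranked 23 of 17471, between domains of 9611 bp on chromosome 19 and 9578 bp on chromosome 10. Without joining, the peak of 7534 bp ranked 58 of 18142, and joining within 2 kb, which lengthens other domains, gave a rank of 53. The edges of both marks nearly coincided: H3K27ac began 269 bp earlier and H3K4me3 ended 189 bp after it.

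The other 3 Mef2c sites paired broad H3K27ac with narrow H3K4me3. At the second site an H3K27ac peak of 6837 bp (83707670 to 83714506) at the ceiling enclosed an H3K4me3 peak of 1870 bp (83711164 to 83713033, score 1083.23). At the third an H3K27ac peak of 5461 bp (83744993 to 83750453) at the ceiling enclosed H3K4me3 of 1723 bp (83747908 to 83749630, score 842.41). At the fourth an H3K27ac peak of 5358 bp (83786802 to 83792159) at the ceiling enclosed H3K4me3 of 2030 bp (83788711 to 83790740, score 985.61). In all 3 pairs, H3K4me3 lay wholly inside H3K27ac, which reached 1909 to 3494 bp past it on the left and 823 to 1473 bp on the right. The H3K4me3 widths were 0.274, 0.316 and 0.379 times the H3K27ac widths.

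In the whole data, 5768 H3K27ac peaks at or above the ceiling met exactly 1 H3K4me3 peak that met no other H3K27ac peak. Their median width ratio was 0.943 (quartiles 0.673 and 1.08). A ratio below 0.4, a limit set after the Mef2c values were seen, held for 13.6% of these pairs and for all 3 at Mef2c. The pairs were alike in H3K27ac score but not in H3K27ac width, which divides the ratio. The 3 Mef2c H3K27ac peaks were wider than 97.2, 94.8 and 94.6% of the H3K27ac list. Whether their ratios are low for peaks of that width was not tested. H3K4me3 was below its own ceiling in 20.8% of these pairs and in all 3 at Mef2c. Mef2d had 1 such pair, with a ratio of 0.833 and H3K4me3 below the ceiling. Hdac7 had 2 one-to-one pairs with H3K27ac below the ceiling, with ratios of 0.335 and 1.02.

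**Figure D2:**
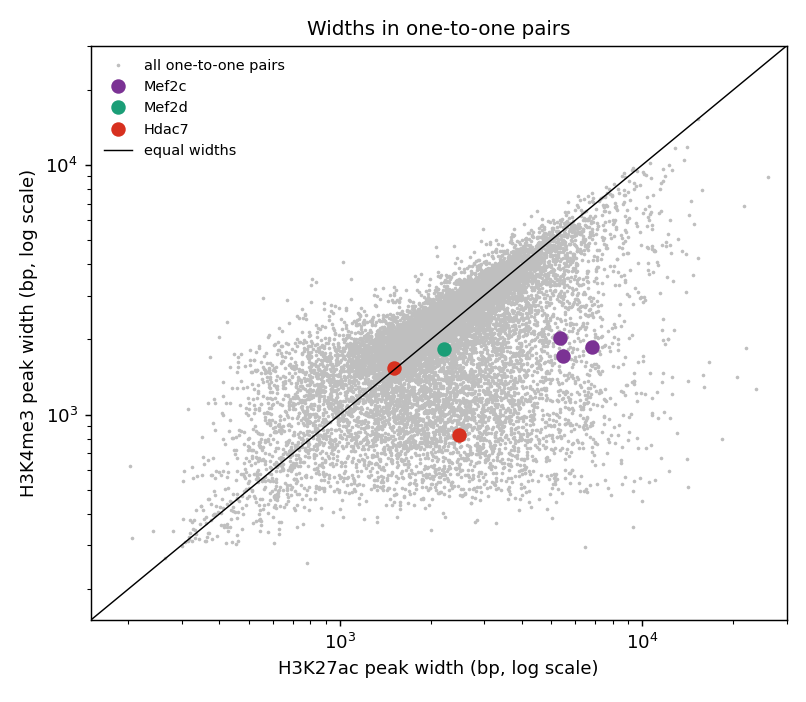
Width of the H3K4me3 peak (bp, log scale) against width of the H3K27ac peak (bp, log scale) for all 13911 one-to-one pairs (grey) and the pairs of the 3 windows (coloured), with a line of equal widths. The 3 Mef2c pairs lie well below the line at ratios of 0.274 to 0.379, as does 1 Hdac7 pair (0.335), while the Mef2d pair (0.833) and the other Hdac7 pair (1.02) lie near it.

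The remaining Mef2c peaks carried H3K27ac without H3K4me3 and lay beside the second and the third site. A peak of 2481 bp (83704231 to 83706711, score 736.07) ended 958 bp before the second site. A peak of 596 bp (83720870 to 83721465, score 59.87) and one of 1069 bp (83721474 to 83722542, score 285.61) followed it, only 8 bp apart. The peak of 3544 bp (83741211 to 83744754) was at the ceiling and ended 238 bp before the H3K27ac of the third site, so the acetylated stretch was nearly continuous there.

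Hdac7, the deacetylase that binds MEF2 factors, carried the widest H3K27ac peak of the 3 windows. It measured 17968 bp (chromosome 15, 97645106 to 97663073), scored 3100 and ranked 39 of 29468 in width. It enclosed 4 H3K4me3 peaks: 1377 bp (97647192 to 97648568, score 64.25), 1357 bp (97649395 to 97650751, score 248.63), 6645 bp (97650761 to 97657405, ceiling) and 4773 bp (97658285 to 97663057, ceiling). In the whole list 15 H3K27ac peaks met 4 or more H3K4me3 peaks, and 10 of these were among the 77 peaks of 15 kb or more. The gaps between the Hdac7 peaks were 826, 9 and 879 bp, so joining gave 1 domain of 15866 bp, the widest of the 17471. That rank rests on the joining distance and on the weakest peak. Without joining, the widest H3K4me3 peak at Hdac7 was 6645 bp and ranked 100 of 18142, and with scores of at least 100 the joined domain was 13663 bp and ranked 3. Joining within 2 kb left the domain at 15866 bp and also gave rank 3.

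Inside the Hdac7 block, H3K4me3 scores were uneven. The 2 peaks nearer the right edge were at the ceiling, and the 2 nearer the left edge scored 64.25 and 248.63. H3K27ac ran 2086 bp past H3K4me3 on the left and 16 bp past it on the right. RefSeq places Hdac7 on the minus strand, so at Hdac7, as at Mef2d, the longer overhang of H3K27ac points in the direction of transcription. At Mef2c no such overhang was found at the broad site. At the other 3 Mef2c sites the longer overhang was on the left, against the direction of Mef2c transcription (3494, 2915 and 1909 bp). On the right it was 1473, 823 and 1419 bp. The smaller Mef2d pair had 285 bp on the left, against the direction of Mef2d transcription, and 84 bp on the right. The pair in the Hdac7 window with H3K4me3 of 831 bp had 911 bp on the left, the direction of Hdac7 transcription, and 739 bp on the right. Relative to the strand of the gene that names each window, the longer overhang thus had no common direction. None of these pairs was assigned to a gene, so the direction of transcription at the pairs themselves is not known. The strands are those of GRCm38.p6, and the position of the starts within the blocks was not examined.

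**Figure D3:**
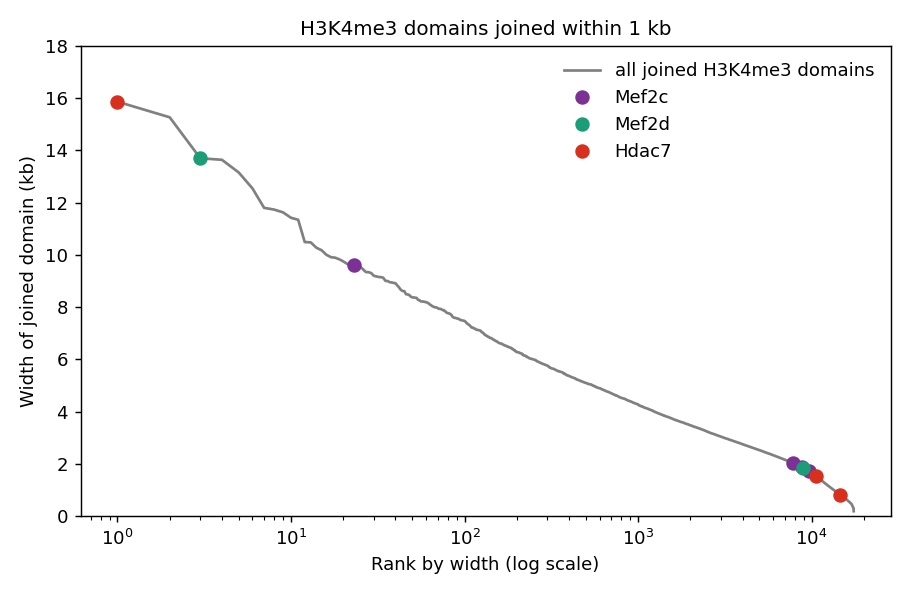
Width of every H3K4me3 domain joined within 1000 bp (kb) against its rank (log scale), with the domains of the 3 windows as coloured points. The widest domains at Hdac7, Mef2d and Mef2c rank 1, 3 and 23 at 15866, 13702 and 9599 bp, and the other domains of the windows, 831 to 2030 bp wide, rank between 7834 and 14561.

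The left part of the Hdac7 window held 2 further sites with both marks. H3K27ac of 2481 bp (97609955 to 97612435, score 2071.29) enclosed a weak H3K4me3 peak of 831 bp (97610866 to 97611696, score 118.35). Then H3K27ac of 1508 bp (97614487 to 97615994, score 1393.68) lay within H3K4me3 of 1540 bp (97614485 to 97616024) at the ceiling, with edges that differed by 2 and 30 bp. In the gene order of GRCm38.p6, Rapgef3 and the overlapping Slc48a1 are near this side, and these peaks were not assigned to any gene. The other 4 H3K27ac peaks had no H3K4me3: 618 bp (97617535 to 97618152, score 52.10), 1033 bp (97642109 to 97643141, score 192.34), 594 bp (97679674 to 97680267, score 60.66) and 562 bp (97681071 to 97681632, score 63.89).

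The window bound closest to a peak was the left one at Hdac7. A site just outside it, with H3K27ac of 931 bp (97598131 to 97599061, score 130.30) and H3K4me3 of 1645 bp (score 981.95), ended 939 and 704 bp before the window began. The first peaks inside, the H3K27ac peak of 2481 bp and the H3K4me3 peak of 831 bp, began 9955 and 10866 bp after that bound. At Mef2d the last peak inside, of 600 bp, ended 4771 bp before the bound and the nearest peak outside was 19.2 kb beyond it. At Mef2c the nearest peak outside was 10.2 kb beyond the right bound.

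The broad blocks at the 3 genes were unlike most wide H3K27ac peaks in how much of them lay under H3K4me3. In the whole list, 405 H3K27ac peaks were 9 kb or wider, and a median of 30.8% of their length was under H3K4me3 (quartiles 10.8 and 53.0%). The part was 92.9% at Mef2c, 82.6% at Mef2d and 78.8% at Hdac7. Counting each locus itself, 5, 20 and 28 of the 405 peaks reached these values (1.23, 4.94 and 6.91%). Among the 77 peaks of 15 kb or more the median was 26.9%, and 2 reached the Mef2d value and 3 the Hdac7 value. Of these wide peaks, 67 of the 405 and 11 of the 77 met no H3K4me3, and they lower the medians. The windows were placed around genes, whereas the wide peaks were taken from the whole genome. The width limits were set after the values were seen.

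**Figure D4:**
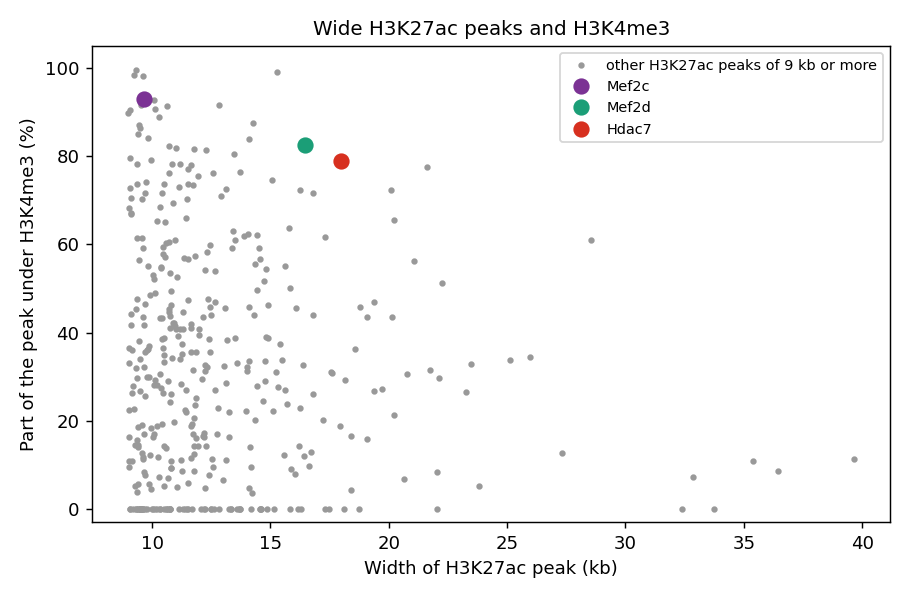
Part of each H3K27ac peak under H3K4me3 (%) against the width of the peak (kb), for the 405 peaks of 9 kb or more. The widest peaks at Mef2c (92.9%), Mef2d (82.6%) and Hdac7 (78.8%) lie near the top, well above the median of 30.8%.

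H3K27ac peaks within 12500 bp were also stitched into regions, the step used to find super-enhancers, and ranked by summed peak length. Regions above 11.2 kb, where the slope of the rank curve passes 1 once both axes are scaled, were called long, and 6.40% of the 16134 regions were. The Hdac7 block with its neighbour of 1033 bp formed a region of 19.0 kb summed length, rank 380. The Mef2d block with its neighbour of 1764 bp formed one of 18.2 kb, rank 428. These ranks depend on the ranking and the distance: by summed score they were 3127 (Hdac7) and 2931 (Mef2d), and with stitching within 5 kb they were 191 and 210. Ranked by length, both were long with 2 peaks each, whereas the median long region had 5 peaks, and 7.27% of long regions had 2 or fewer. H3K4me3 covered 74.5% of the H3K27ac length in the Hdac7 region and 74.6% in the Mef2d region, against a median of 31.9% over the 1032 long regions. Of the long regions, 5.81 and 5.62% reached those values.

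None of the 4 stitched regions at Mef2c was long. The largest, around the second site, summed to 10983 bp in 4 peaks (rank 1076, and 2188 by summed score), of which 17.0% lay under H3K4me3. The others summed to 9679 bp (rank 1345), 9005 bp (rank 1503, and 1089 by summed score) and 5358 bp (rank 3185). With gaps of up to 20 kb allowed, the second and the third site merged into 19988 bp, rank 483. In the left part of the Hdac7 window, 3 peaks belonged to a region of 6 peaks that began outside the window (97579820 to 97618152, 10.2 kb summed).

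Summed over each window, Mef2c had the most H3K27ac, 35.0 kb in 8 peaks, against 24.8 kb in 7 peaks at Hdac7 and 21.0 kb in 4 peaks at Mef2d. H3K4me3 covered 14.8 kb in 5 peaks at Mef2c, 15.4 kb in 3 at Mef2d and 16.5 kb in 6 at Hdac7. With only peaks at or above the ceiling, H3K4me3 covered 7534, 13589 and 12958 bp at Mef2c, Mef2d and Hdac7, and H3K27ac 30879, 18665 and 17968 bp. With all peaks, H3K27ac was 2.37 times as long as H3K4me3 at Mef2c, 1.36 times at Mef2d and 1.5 times at Hdac7. The part of H3K27ac shared with H3K4me3 was 41.7, 73.4 and 66.6% in the same order, and the part of H3K4me3 shared with H3K27ac was 98.7, 100 and 99.8%. The windows differ in length, so shares of the window are given as well. H3K27ac covered 14.0% of the Mef2c window, 26.3% at Mef2d and 24.8% at Hdac7, and H3K4me3 covered 5.92, 19.3 and 16.5%.

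**Figure D5:**
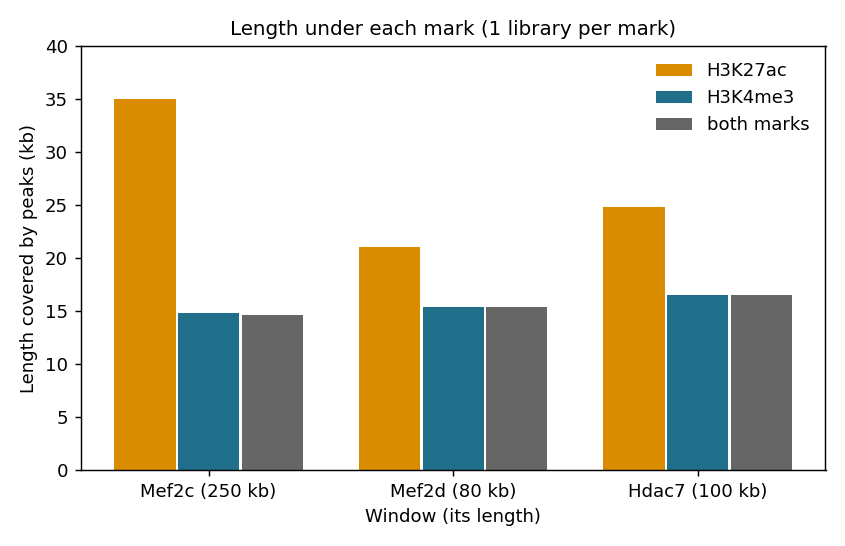
Length covered by H3K27ac peaks, by H3K4me3 peaks and by both (kb) in each window, with the window length under its name and 1 library per mark. H3K27ac is longest at Mef2c (35.0 kb), and H3K4me3 from all peaks lies between 14.8 and 16.5 kb at the 3 genes.

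The same lengths were counted in consecutive tiles of equal size along the autosomes and the X chromosome. At Mef2d, 0.191% of the 32940 tiles of 80 kb held as much H3K4me3 or more, and 1.06% held as much H3K27ac. At Hdac7, 0.292% of the 26349 tiles of 100 kb reached its H3K4me3 and 1.07% its H3K27ac. At Mef2c, 4.92% of the 10534 tiles of 250 kb reached its H3K4me3 and 2.95% its H3K27ac. Many tiles hold no gene and the windows were placed around genes. The tiles also lie on a fixed grid that can cut a domain at an edge, whereas each window holds its block whole, so the placement favours the windows. Among tiles with some H3K4me3, the H3K4me3 shares were 0.628, 0.851 and 9.48% for Mef2d, Hdac7 and Mef2c, and the H3K27ac shares were 3.27, 2.96 and 5.60%. By these counts Mef2d and Hdac7 stood further out for H3K4me3 than for H3K27ac, and Mef2c the reverse.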

How the data were processed

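Per the labels, H3K27ac, H3K4me3 and IgG were immunoprecipitated from 1 culture type, 1 library each, and the title of each sample gave its group. The authors called peaks with MACS on mm9, per the submitters' processing notes. Its version, the aligner, read filters and depth were not stated there. In the deposited files stand the position and a score of each peak, and neither the file nor the labels define that score. Positions are printed counted from 1.

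Members were all peaks overlapping the 3 windows, and members, windows and sequence features were chosen with earlier results of these data known. Every peak is accounted for; the regions set beside a locus are its neighbours in rank. Overlap, joining, stitching and tile counts were computed over the whole lists in Python 3.11.15 (pandas 2.3.3, NumPy 2.4.6, and SciPy 1.17.1 for intervals). Overlap, joining and stitching were checked on simulated intervals, and the tile counts were not. Shares have exact Clopper-Pearson intervals. With 1 library per mark no p-value was computed. RefSeq promoters were matched by symbol for all 3 genes. The planned marker genes, related genes and protein sequences were not analysed here.

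Alternatives changed the score minimum, overlap, list length, window bounds and the joining or stitching distance.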

Additional observations from a re-analysis of the deposited data

How the results depend on the processing

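Of 61 alternative values, 44 stayed within the interval or within 1.5 times the reported value and 17 did not. This count pools widths, lengths, shares and ranks, and most of the 17 were ranks. Some values could not fall: a longer joining distance cannot shorten a domain, and counting nearby peaks as meeting cannot lower 14 of 14. The count is therefore no measure of robustness. With the H3K27ac list shortened to the length of the H3K4me3 list, 81.8% of the H3K27ac peaks in the windows (9 of 11) met H3K4me3, beside 72.3% of all peaks of the shortened list. With only ceiling scores, the H3K4me3 length at Mef2c became 7534 bp. Without joining, the widest H3K4me3 peaks ranked 58 (Mef2c), 6 (Mef2d) and 100 (Hdac7, 6645 bp), and with joining within 2 kb the ranks were 53, 9 and 3. With scores of at least 100 the Hdac7 domain ranked 3. Stitching within 5 kb gave ranks of 210 (Mef2d) and 191 (Hdac7), and stitching within 20 kb gave Mef2c 19988 bp and rank 483. By summed score the longest regions ranked 2188 (Mef2c), 2931 (Mef2d) and 3127 (Hdac7). The Mef2c region of 9005 bp moved from 1503 to 1089 and the second Mef2d region from 6946 to 3636. Since many peaks share the ceiling score, that ranking reflects the number of ceiling peaks more than their width. All 14 H3K4me3 peaks met H3K27ac under each alternative that kept them, and with windows widened by 50 kb 21 of 24 did. No paired analysis was possible because each mark has 1 library. Depth is unknown, so weak peaks cannot be told from background beyond the authors' threshold.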

Other observations

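A second cluster with both marks lay just beyond the Mef2c window, on chromosome 13. An H3K4me3 peak of 5637 bp (83868477 to 83874113) and an H3K27ac peak of 4735 bp (83868728 to 83873462), both scoring 3100, covered nearly the same positions 18.5 kb past the bound. Beside them, an H3K4me3 peak of 1809 bp (83860171 to 83861979, score 1377.11) met 2 small H3K27ac peaks of 625 and 765 bp (scores 90.97 and 108.47). An H3K4me3 peak of 2121 bp (83877559 to 83879679, score 2040.69) met H3K27ac of 1499 bp (score 462.46). In all 3 of these places H3K4me3 was the wider mark, unlike the last 3 sites inside the Mef2c window, where H3K27ac was wider. An H3K4me3 peak of 841 bp (83884391 to 83885231, score 319.71) had no H3K27ac. On the other side of Mef2c no H3K27ac peak was called for 347 kb before the window.

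Beyond the Hdac7 window the nearest H3K27ac peak to the right was 93.9 kb away, while 4 lay within 50 kb to the left. The right side of that locus was thus nearly free of called acetylation, apart from the 2 peaks of 594 and 562 bp inside the window. An H3K4me3 peak of 1213 bp (chromosome 15, 97737811 to 97739023, score 785.99) lay there without H3K27ac. Near Mef2d, an H3K4me3 peak of 1171 bp (chromosome 3, 88019227 to 88020397, score 178.78) also lacked it.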
